A study of Mus musculus with 24 samples.

Results

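The 4 *Pfkfb* genes of the mouse, *Pfkfb1*, *Pfkfb2*, *Pfkfb3* and *Pfkfb4*, were measured by RNA-Seq in tibialis anterior (TA) muscle, a fast muscle of the lower hind limb. Each encodes a PFK-2/FBPase-2 enzyme, a single protein that both makes and removes fructose 2,6-bisphosphate. This sugar phosphate activates PFK-1, the enzyme that commits fructose 6-phosphate to glycolysis, and inhibits fructose 1,6-bisphosphatase, which works in the opposite direction. The isoforms differ in the balance of their activities and in where they are made: *Pfkfb1* has separate muscle and liver promoters, *Pfkfb2* encodes the form known from heart, *Pfkfb3* an inducible form with high kinase activity, and *Pfkfb4* a form known from testis that is induced by hypoxia. The genes were chosen as a family from the 55487 genes listed, for the balance of the isoforms and for their difference between photobiomodulation therapy (PBMT) and control in sedentary and fatigued muscle, with results of these mice already known. Their PBMT differences and the balance of the isoforms are therefore given as a description with no test. Tests of the 4 genes are limited to the level of each gene in fatigued against sedentary muscle, a comparison the choice did not name. The balance is computed from the same levels, so these tests are not fully separate from the choice, and their p-values carry that limit.

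All 24 mice were male C57BL/6J, wild type, 5 to 7 weeks old, and fell into 4 groups of 6, with a control and a PBMT group in the sedentary and in the fatigued state. PBMT mice were anesthetized and their shaved lower limbs received 830 nm LED light for 20 min at 25 mW/cm2, a fluence of 30 J/cm2. Control mice were shaved and kept under anesthesia for 20 min without light, and no sham light or heat control was used. Sedentary muscle was taken 24 h after the procedure, while fatigued mice ran to exhaustion on an inclined treadmill, for at most 120 min, before dissection at that time. Run times of single mice were not used here. Sedentary and fatigued mice were sequenced as separate projects, so running state and project cannot be told apart in any comparison between states. Libraries were poly(A)-selected from RNA with integrity numbers of at least 7.7. Total counts were 43271093 to 46904076 in sedentary control, 46327516 to 52775844 in sedentary PBMT, 56792327 to 68726155 in fatigued control and 53122528 to 68566029 in fatigued PBMT libraries. At this depth every library held at least 1684 counts for *Pfkfb1*, 170 for *Pfkfb2*, 3569 for *Pfkfb3* and 1756 for *Pfkfb4*, and all 4 genes passed the filter on low counts.

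The muscle label was checked against 10 genes of skeletal muscle fibers, among them the fast myosin gene *Myh4* and the fast calcium pump gene *Atp2a1*. None of the 10 was at 0, and together they held between 120911 and 199678 CPM (a gene's counts relative to each library's TMM-normalized total, on the usual CPM scale) in every mouse. RNA came from whole muscle, so fewer cells of a type and less RNA per cell cannot be told apart.

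In sedentary control muscle *Pfkfb3* was the most abundant of the 4 genes per unit length. Dividing CPM by the kilobases covered by a gene's exons gave 35.1 ± 6.02 CPM per kb for *Pfkfb3* (SD, n = 6), 12.2 ± 1.69 for *Pfkfb1*, 11.1 ± 1.07 for *Pfkfb4* and 0.643 ± 0.0750 for *Pfkfb2*. *Pfkfb3* was the highest and *Pfkfb2* the lowest in 6 of 6 mice, whereas *Pfkfb1* lay above *Pfkfb4* in 4 of 6, so these neighbours overlapped. The order of the means was the same in sedentary PBMT muscle, at 52.7 ± 15.9 CPM per kb for *Pfkfb3*, 11.6 ± 1.76 for *Pfkfb1*, 9.59 ± 1.14 for *Pfkfb4* and 0.685 ± 0.147 for *Pfkfb2*. In fatigued control muscle *Pfkfb4* led with 13.1 ± 1.20 CPM per kb, followed by *Pfkfb3* at 9.66 ± 2.37, *Pfkfb1* at 9.24 ± 1.04 and *Pfkfb2* at 0.713 ± 0.220. There *Pfkfb3* exceeded *Pfkfb1* in 3 of 6 mice, and the means of these neighbours differed by less than their SDs. In fatigued PBMT muscle *Pfkfb4* was at 15.9 ± 1.61 CPM per kb and *Pfkfb3* at 12.8 ± 4.46, with *Pfkfb1* at 8.76 ± 0.722 and *Pfkfb2* at 0.686 ± 0.181. *Pfkfb4* was the highest in 6 of 6 fatigued control and 5 of 6 fatigued PBMT mice. With the longest transcript as the length, *Pfkfb4* led in 4 of 6 fatigued control mice and *Pfkfb3* in 2. With no correction for length *Pfkfb3* held more of the 4 genes' summed level than *Pfkfb4* in fatigued muscle, 40.3% against 36.0% in control and 44.2% against 36.8% in PBMT mice, so which of the 2 led there depended on the length used. *Pfkfb2* reached at most 1.15 CPM per kb in the 24 mice.

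**Figure D1:**
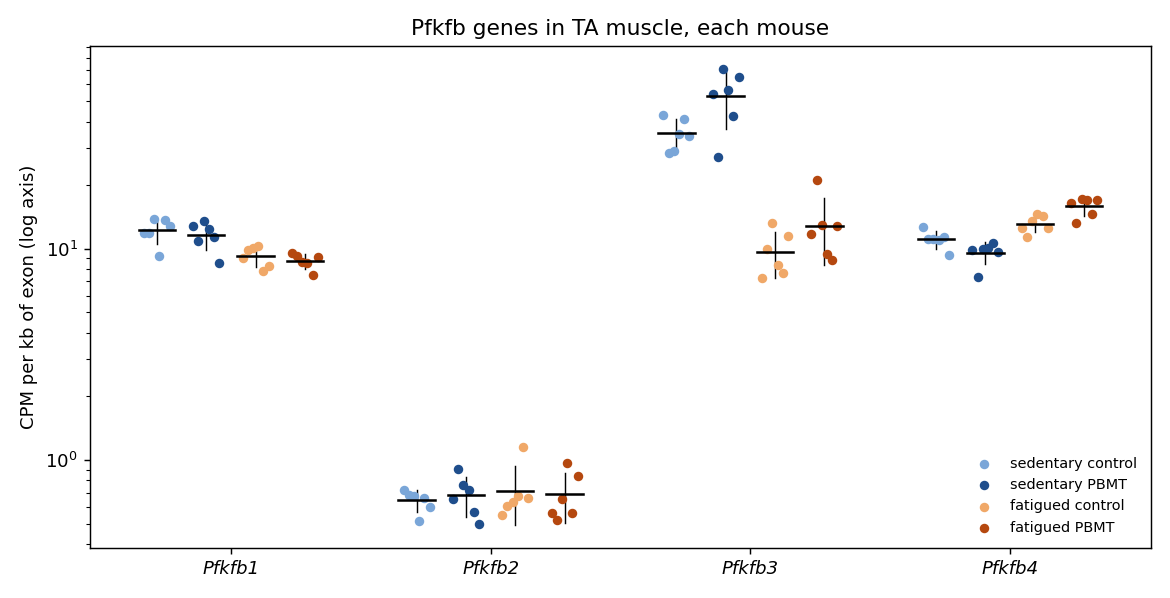
CPM per kb of exon (log axis) of the 4 Pfkfb genes in each of the 24 mice, with 1 point per mouse, horizontal lines for group means and vertical lines for 1 SD (n = 6 per group). *Pfkfb3* lay between 27.2 and 71.1 in sedentary mice and between 7.23 and 21.2 in fatigued mice, while *Pfkfb2* was the lowest gene in every group.

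*Pfkfb3*, the inducible isoform, separated the states. It lies on the minus strand of chromosome 2 (chr2:11471433-11554077, GRCm38; ENSMUSG00000026773). Its lowest, median and highest levels were 215, 261 and 325 CPM in sedentary control mice and 54.6, 69.1 and 100.3 CPM in fatigued control mice. All 6 fatigued mice lay below all 6 sedentary mice. The fatigued level was 3.63-fold lower, a log2 fold change of -1.86 (SE 0.224, edgeR adjusted p = 7.37e-06). In PBMT mice, which share no animal with the controls, the 3 values were 206, 417 and 538 CPM in sedentary and 66.7, 92.8 and 161 CPM in fatigued muscle. The groups again did not overlap, although 1 fatigued mouse, at 161 CPM, stood above the other 5, which reached at most 98.4. The log2 fold change was -2.04 (SE 0.225, edgeR adjusted p = 9.27e-07), a level 4.10-fold lower in fatigued muscle.

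*Pfkfb4*, on the plus strand of chromosome 9 (chr9:108991778-109032228; ENSMUSG00000025648), went the other way. It was at 45.5, 54.0 and 61.9 CPM (lowest, median, highest) in sedentary control mice and at 55.6, 63.6 and 71.3 CPM in fatigued control mice. These groups overlapped, with 3 of 6 fatigued mice above the highest sedentary mouse. The log2 fold change was 0.24 (SE 0.0857, edgeR adjusted p = 0.0471), close to the threshold of 0.05. When single mice were left out, the call was kept without sedentary control mouse 1 or fatigued control mouse 2 and lost without any of the other 10 (log2 fold change 0.20 to 0.29, edgeR adjusted p up to 0.119). It was also lost with scaling to total counts (0.18, edgeR adjusted p = 0.133) and without the filter on low counts (0.26, edgeR adjusted p = 0.0522). In PBMT mice the separation was complete: sedentary levels were 35.9, 48.4 and 51.7 CPM and fatigued levels 64.7, 81.5 and 83.5 CPM. *Pfkfb4* rose there by 0.73 on the log2 scale (SE 0.0861, edgeR adjusted p = 9.56e-07), 1.66-fold.

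*Pfkfb1*, on the X chromosome (chrX:150588229-150643878, plus strand; ENSMUSG00000025271), was lower in fatigued muscle by a smaller step. Its lowest, median and highest levels were 37.0, 49.8 and 55.4 CPM in sedentary control and 31.4, 37.9 and 41.6 CPM in fatigued control mice. The sedentary range reached into the fatigued one because of 1 mouse at 37.0 CPM, and 3 of 6 fatigued mice lay below it. The log2 fold change was -0.40 in control mice (SE 0.102, edgeR adjusted p = 0.00691) and -0.40 in PBMT mice (SE 0.102, edgeR adjusted p = 0.00452), where levels were 34.3, 47.8 and 54.2 CPM against 30.1, 35.7 and 38.3 CPM. *Pfkfb2* (chr1:130689182-130729253, minus strand; ENSMUSG00000026409) did not pass the test in either comparison. It ranged from 3.73 to 5.24 CPM in sedentary control and from 3.98 to 8.37 CPM in fatigued control mice (log2 fold change 0.15, SE 0.177, edgeR adjusted p = 0.601, and log2 fold change -0.04 without fatigued control mouse 5, the animal at 8.37 CPM), and from 3.61 to 6.60 and 3.78 to 7.04 CPM in the PBMT mice of the same states (log2 fold change 0.00, SE 0.177, edgeR adjusted p = 0.991). Exons of *Pfkfb1* overlap 123 bp of *Apex2* on the opposite strand. Exons of *Pfkfb2* overlap 154 bp of *Yod1* on the opposite strand and 1262 bp of *Gm29427*, which had at most 2 counts. The strand setting of the counting was not given in the sources used here, so reads in those stretches cannot be assigned with certainty.

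Of the 4 genes, 1 was higher and 2 were lower in fatigued muscle in each comparison, which left out *Pfkfb2*. Over all 15108 genes tested, 18.6% were called in control mice (9.1% higher, 9.49% lower) and 26.8% in PBMT mice (14.1% higher, 12.7% lower). The direction counts in control mice, 1375 higher and 1434 lower, became 977 and 2166 with scaling to total counts, under which *Pfkfb3* and *Pfkfb1* kept their calls. They tilted the other way without the filter on low counts (1179 higher and 899 lower) and without fatigued control mouse 6 (1144 and 934). Groups that did not overlap were found for 1 of the 4 genes in control mice (7.7% of all genes tested) and 2 of 4 in PBMT mice (11.2%).

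The balance of the isoforms is described here by shares. As a share of the summed CPM per kb of the 4 genes, *Pfkfb3* made up 59.2% ± 4.25 (SD, n = 6) in sedentary control and 29.3% ± 5.20 in fatigued control muscle. Every sedentary share, from 53.1% to 62.9%, was above every fatigued one, from 24.6% to 35.3%. *Pfkfb4* went from 18.9% ± 1.91 to 40.3% ± 4.25, again with no overlap, and *Pfkfb1* from 20.8% ± 3.36 to 28.3% ± 2.76. *Pfkfb2* held 1.10% ± 0.152 and 2.2% ± 0.760. In PBMT mice *Pfkfb3* held 69.5% ± 6.77 of the sedentary and 33.0% ± 7.78 of the fatigued sum, and *Pfkfb4* 13.3% ± 2.36 and 42.1% ± 6.23. *Pfkfb1* held 16.3% ± 4.37 and 23.0% ± 1.49, and *Pfkfb2* 0.997% ± 0.485 and 1.82% ± 0.532. The *Pfkfb3* share was lower in fatigued muscle by 29.9 percentage points in control mice and by 36.5 in PBMT mice, and the *Pfkfb4* share higher by 21.4 and 28.9 points. The shares of *Pfkfb1* were higher by 7.41 and 6.78 points and those of *Pfkfb2* by 1.10 and 0.823. Since the choice of the genes used the balance of the isoforms, these shares stand as a description with no test. Shares of a sum must also move against each other: the *Pfkfb1* share was higher in fatigued muscle while its level was lower.

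The sum itself was smaller in fatigued muscle, at 32.8 ± 2.84 CPM per kb against 59.1 ± 6.81 in sedentary control mice (SD, n = 6), and 38.2 ± 4.26 against 74.5 ± 16.9 in PBMT mice. The ratio of *Pfkfb3* to *Pfkfb4* per kb averaged 3.17 in sedentary control, 5.44 in sedentary PBMT, 0.743 in fatigued control and 0.831 in fatigued PBMT mice.

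**Figure D2:**
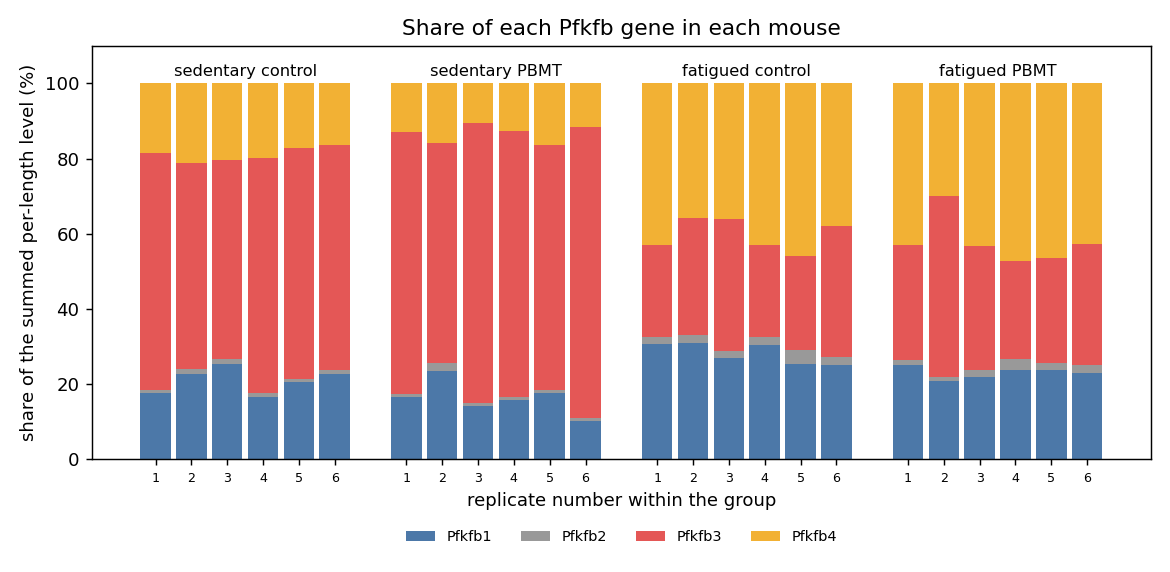
Share (%) of each Pfkfb gene in the summed CPM per kb of the 4 genes, with 1 stacked bar for each of the 24 mice, numbered within their group. *Pfkfb3* held 53.1% or more in every sedentary mouse and 48.0% or less in every fatigued mouse.

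After PBMT, sedentary muscle had a higher mean *Pfkfb3* level, 398 ± 120 CPM against 265 ± 45.5 in controls (SD, n = 6), and a lower mean *Pfkfb4* level, 46.8 ± 5.55 against 54.1 ± 5.24. For *Pfkfb3*, 4 of 6 PBMT mice lay above the highest control and 1 lay below the lowest, so the SD in PBMT mice was the larger. For *Pfkfb4* the groups overlapped, with 1 PBMT mouse, at 35.9 CPM, below every control. Log2 fold changes were 0.59 for *Pfkfb3* (SE 0.188), -0.21 for *Pfkfb4* (SE 0.0905), -0.07 for *Pfkfb1* and 0.09 for *Pfkfb2*. When single mice were left out, the value of *Pfkfb1* lay between -0.15 (without sedentary control mouse 4) and 0.002 (without sedentary PBMT mouse 6). That of *Pfkfb2* lay between -0.002 (without sedentary PBMT mouse 2) and 0.17 (without sedentary PBMT mouse 6). Without sedentary PBMT mouse 2 the value of *Pfkfb4* was -0.14. Since the genes were chosen on this contrast, these values stand without a test.

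In fatigued muscle the PBMT means were higher for both genes. *Pfkfb3* averaged 97.1 ± 33.7 CPM after PBMT and 73.1 ± 17.9 in controls (SD, n = 6), with 1 of 6 PBMT mice above the highest control. *Pfkfb4* averaged 77.6 ± 7.83 and 64.1 ± 5.84 CPM, with 4 of 6 PBMT mice above the highest control. Both pairs of groups overlapped. Log2 fold changes were 0.41 for *Pfkfb3* (SE 0.215), 0.28 for *Pfkfb4* (SE 0.0783), -0.08 for *Pfkfb1* and -0.05 for *Pfkfb2*. Without fatigued PBMT mouse 2, the animal at 161 CPM, the value of *Pfkfb3* was 0.21. That of *Pfkfb2* was 0.14 without fatigued control mouse 5 and -0.18 without fatigued PBMT mouse 4. For *Pfkfb1* it was -0.12 without fatigued control mouse 5 and -0.04 without fatigued PBMT mouse 5. The PBMT effect in fatigued minus that in sedentary muscle was 0.49 for *Pfkfb4* (SE 0.121), -0.18 for *Pfkfb3* (SE 0.306), -0.15 for *Pfkfb2* and 0.00 for *Pfkfb1*. Without fatigued PBMT mouse 2 this difference was -0.38 for *Pfkfb3*, and without fatigued control mouse 3 it was -0.07. For *Pfkfb2* it was 0.04 without fatigued control mouse 5 and -0.27 without fatigued PBMT mouse 4. For *Pfkfb1* it lay between -0.08 and 0.07 when single mice were left out.

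Over all genes tested, edgeR called 0.0282% of 14177 for PBMT in sedentary muscle, 0% of 14574 in fatigued muscle and 0.00662% of 15108 for the difference, and nothing is read from these for the 4 *Pfkfb* genes. The 4 genes called in sedentary muscle, named after their values were seen, were *Ccn1*, *Egr1* and *Cited2*, which rose, and *Nfil3*, which fell, and *Nfil3* was also the 1 gene called for the difference. DESeq2 called 60 genes in sedentary muscle, 22 higher and 38 lower, and edgeR called 18 without sedentary control mouse 4 (6 higher, 12 lower), 20 without sedentary PBMT mouse 5 (7 and 13) and 16 without the filter on low counts (8 and 8), so neither the number nor its direction was settled. In fatigued muscle the 0 calls stood beside 230 genes at an unadjusted p under 0.05 and 2 calls by DESeq2. Groups did not overlap for 0 of the 4 *Pfkfb* genes, beside 0.463% of all genes in sedentary and 0.0265% in fatigued muscle.

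The rest of the pathway was followed through lists of 72 genes, of which 70 were tested between states. In control mice 12 were higher and 5 lower in fatigued muscle, and in PBMT mice 12 were higher and 12 lower. These 17 and 24 of 70 stood beside 18.6% and 26.8% called over all genes tested, and nothing particular to the lists is read from them or from the counts below. With scaling to total counts the splits were 9 and 10 in control mice and 9 and 12 in PBMT mice, and without the filter on low counts they were 10 and 1 in control mice and 11 and 6 in PBMT mice. Leaving out single mice gave 8 to 15 higher and 2 to 7 lower in control mice, the fewest without fatigued control mouse 6 and the most without sedentary control mouse 4. In PBMT mice it gave 9 to 13 higher and 6 to 11 lower, with 6 lower without fatigued PBMT mouse 6 or sedentary PBMT mouse 1. Among the subunits of PFK-1, the enzyme that fructose 2,6-bisphosphate activates, the muscle gene *Pfkm* was by far the most abundant, at 1312 ± 305 CPM per kb in sedentary control muscle (SD, n = 6), and did not pass the test (log2 fold change 0.12, SE 0.102 in control mice and 0.17, SE 0.102 in PBMT mice). The platelet-type subunit *Pfkp*, at 0.254 ± 0.0443 CPM per kb, rose by 0.89 (SE 0.172, edgeR adjusted p = 0.000681) and by 1.02 in PBMT mice (SE 0.171, edgeR adjusted p = 9.40e-05). The liver-type subunit *Pfkl* passed in PBMT mice (0.37, SE 0.131, edgeR adjusted p = 0.0361), a call lost with total counts and in 6 of 12 fits without 1 mouse, and not in control mice (0.10, SE 0.131). So 1 of 3 subunit genes was called in control and 2 of 3 in PBMT mice, all higher.

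Genes acting against this step gave 1 lower call of 2 tested in each comparison. *Tigar*, whose product removes fructose 2,6-bisphosphate, fell by 0.30 on the log2 scale in control mice (edgeR adjusted p = 0.0343, lost without the filter on low counts and in 7 of 12 fits without 1 mouse) and by 0.68 in PBMT mice (edgeR adjusted p = 2.03e-05). *Fbp2*, the muscle fructose 1,6-bisphosphatase, had log2 fold changes of -0.04 (SE 0.175) and 0.05 (SE 0.175). *Fbp1* was too low to be tested.

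Of the 16 tested genes of glucose uptake and glycolysis outside PFK-1, 4 were called in control mice and 5 in PBMT mice, all of them higher. With total counts, and without the filter on low counts, 4 were called in PBMT mice. The call lost there was kept in 5 of 12 fits without 1 mouse. The hexokinase gene *Hk2* rose by 0.90 and 1.26 on the log2 scale (SE 0.199 and 0.200, edgeR adjusted p = 0.00274 and 6.83e-05), *Hk1* by 0.72 and 0.85, and the glucose transporter gene *Slc2a1* by 0.54 and 0.99. The list's median was 0.10 in control and 0.08 in PBMT mice, beside -0.01 and 0.00 over all genes tested, and most of its genes, 12 and 11 of 16, did not pass. Of 11 genes of glycogen metabolism, the phosphorylase gene *Pygm* (0.39) and the phosphorylase kinase subunit *Phka1* (0.29) were higher and the branching enzyme gene *Gbe1* (-0.52) lower in control mice. In PBMT mice 2 of the 11 were lower, *Gbe1* (-0.51) and the glycogenin gene *Gyg* (-0.23), and the other 9 did not pass. Without 1 mouse, the call of *Phka1* was lost in 5 of 12 fits and that of *Gyg* in 9 of 12.

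Among 15 kinases and phosphatases that act on PFK-2 enzymes, 1 was called in control mice and 5 in PBMT mice, all of them lower. With total counts 3 were lower in control and 5 in PBMT mice, and without the filter on low counts the control call was lost and 3 were lower in PBMT mice. The control call was the AMP-activated kinase subunit *Prkag1* (-0.20, edgeR adjusted p = 0.0307), lost in 6 of 12 fits without 1 mouse. In PBMT mice the AMP-activated kinase genes *Prkaa2* (-0.52) and *Prkaa1* (-0.30) and the kinase gene *Rps6ka1* (-0.36) had the lowest values, and the call of *Rps6ka1* was lost without fatigued PBMT mouse 3 or 6. Of 3 tested subunits of ubiquitin ligases that target the Pfkfb3 protein, 0 were called in control mice by edgeR (0 at an unadjusted p under 0.05, 0 by DESeq2), and *Cul1* was lower in PBMT mice (-0.22, edgeR adjusted p = 0.0332, lost in 9 of 12 fits without 1 mouse).

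Genes of the hypoxia-inducible factor (HIF) system were included because *Pfkfb3* and *Pfkfb4* are known HIF targets. The factors themselves did not pass: *Hif1a* had log2 fold changes of 0.00 (SE 0.119) in control and -0.03 (SE 0.119) in PBMT mice, and *Epas1* -0.10 (SE 0.118) and -0.05 (SE 0.118). Of 8 genes for the factors and their oxygen sensors, 1 was higher in each comparison, the HIF partner gene *Arnt* in control mice (0.22) and the sensor gene *Egln3* in PBMT mice (0.78), and the other 7 did not pass. The call of *Arnt* was lost in 9 of 12 fits without 1 mouse, without the filter on low counts, and with total counts, where the sensor gene *Egln1* was lower instead (-0.19, edgeR adjusted p = 0.0161). Of 12 other HIF target genes, 4 were higher and 2 lower in control mice, and 4 were higher and 3 lower in PBMT mice. Higher values were found for the adrenomedullin gene *Adm* (0.58 and 0.57) and the collagen prolyl hydroxylase genes *P4ha2* (0.57 and 0.72) and *P4ha1* (0.53 and 0.47), and *Vegfa* was higher by 0.48 and 0.53. With total counts the call of *Adm* was lost in both comparisons and that of *Vegfa* in control mice, where the split turned to 2 higher and 4 lower (3 and 3 in PBMT mice). Without the filter on low counts the 3 calls left in control mice were higher, and 4 were higher and 1 lower in PBMT mice. Lower values were found for *Ddit4*, which encodes an inhibitor of growth signalling (-1.66 in control mice, edgeR adjusted p = 0.0327), and for *Higd1a* (-0.25 and -0.19), and in PBMT mice also for *Ankrd37* (-0.73) and the pyruvate dehydrogenase kinase gene *Pdk1* (-0.22). Without 1 mouse, calls in control mice were lost in 9 of 12 fits for *Vegfa*, 8 for *Adm* and 5 for *Ddit4*, and that of *Higd1a* without sedentary control mouse 3. In PBMT mice they were lost in 10 of 12 fits for *Higd1a*, 7 for *Pdk1* and 3 for *Adm*, and that of *Ankrd37* without sedentary PBMT mouse 1. The medians of these 12 genes were -0.02 and 0.02, beside -0.01 and 0.00 over all genes tested, so their split is not read as particular to HIF targets. Genes of the other lists, *Slc2a1*, *Hk1*, *Hk2* and *Egln3* among them, were not counted in the 12, whether or not they are HIF targets.

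**Figure D3:**
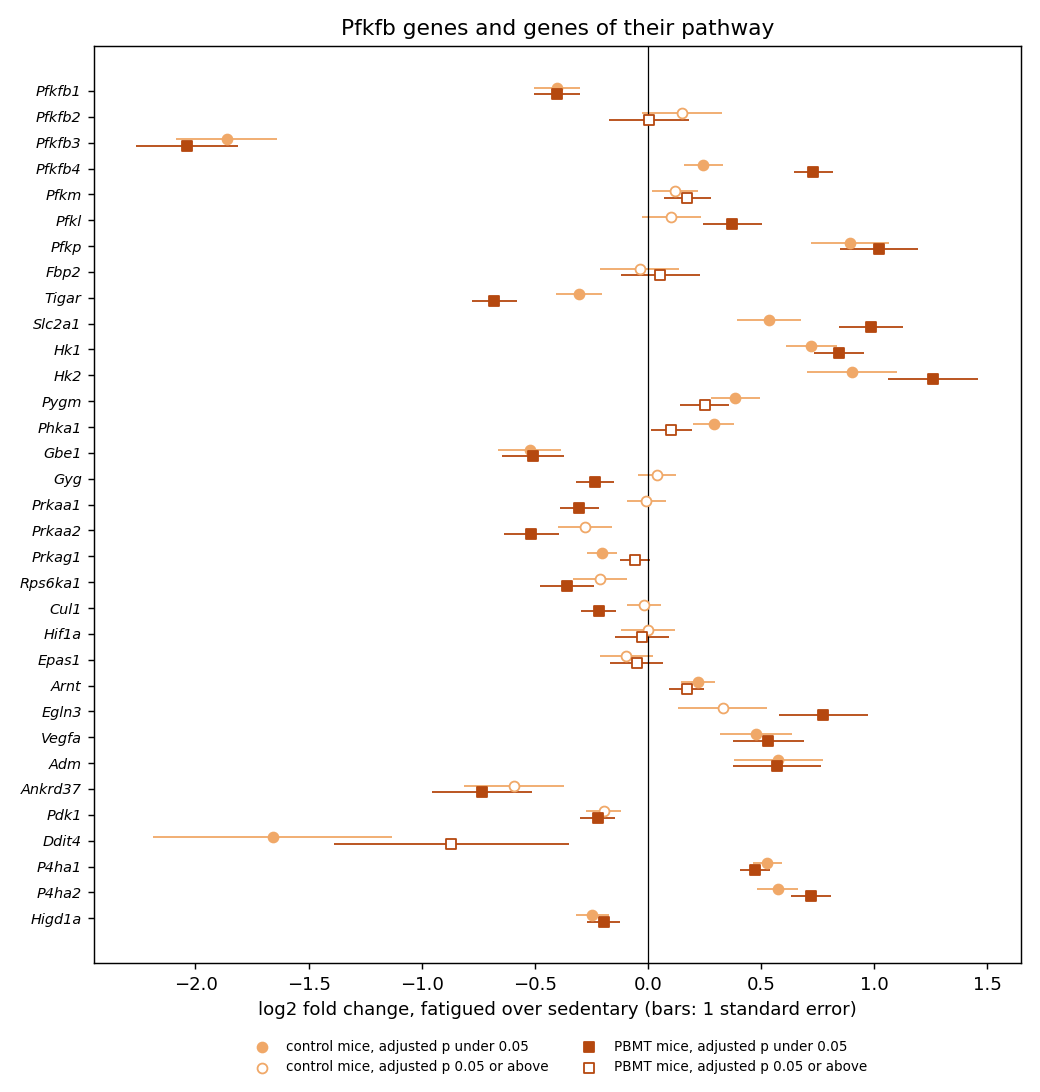
Log2 fold change, fatigued over sedentary, of the Pfkfb genes and named pathway genes, in control mice (circles) and PBMT mice (squares), with bars of 1 SE (n = 6 per group). Filled symbols had an edgeR adjusted p under 0.05. *Pfkfb3* had the lowest value of the genes shown in both comparisons, -1.86 and -2.04, and *Hk2* the highest, 0.90 and 1.26. The filled control-mouse symbol of *Pfkfb4* (0.24) lost its call with scaling to total counts.

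After PBMT no pathway gene was called by edgeR, with 0 of 70 tested in sedentary muscle (6 at an unadjusted p under 0.05, 0 by DESeq2), 0 of 71 in fatigued muscle (0 at an unadjusted p under 0.05, 0 by DESeq2) and 0 of 70 for the difference between them (5 at an unadjusted p under 0.05, 0 by DESeq2). *Pfkm* had log2 fold changes of -0.11 (SE 0.115) in sedentary and -0.07 (SE 0.0746) in fatigued muscle, *Tigar* 0.23 (SE 0.105) and -0.15 (SE 0.0836), and *Hif1a* 0.16 (SE 0.0940) and 0.13 (SE 0.137).

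Some markers of other cells in the dissected muscle also differed between states, and their part in the *Pfkfb* differences was not tested. The counts of calls below stand beside 18.6% and 26.8% called over all genes tested in control and PBMT mice. Summed over 5 macrophage genes, led by *Mrc1*, levels were 32.6 CPM in sedentary control (20.1 to 50.8 over mice), 47.3 in fatigued control (36.9 to 59.9), 21.6 in sedentary PBMT (15.1 to 29.6) and 50.5 in fatigued PBMT mice (25.7 to 87.2), with 1 of 5 genes higher in fatigued muscle in control and 5 of 5 in PBMT mice. The control call, *Cd163*, was lost without the filter on low counts and without fatigued control mouse 5 or 6 or sedentary control mouse 5. In PBMT mice *Adgre1* and *Cd68* each lost their call in 7 of 12 fits without 1 mouse, both without fatigued PBMT mouse 2, 3 or 5 or sedentary PBMT mouse 1, 3 or 5, and with total counts or without the filter 3 of 5 were called. Over 5 interstitial mesenchymal genes, led by *Dcn* in sedentary and *Col1a1* in fatigued muscle, the sums were 546, 832, 479 and 999.7 CPM in the same order, again with 1 of 5 and 5 of 5 genes higher. Fatigued PBMT mouse 5 alone was at 2140 CPM, where the other 5 were at 578 to 1011, and without it *Dcn* and *Dpt* lost their calls. The call of *Dcn* was also lost without fatigued PBMT mouse 3 or sedentary PBMT mouse 3, 4 or 5. Muscle fiber genes summed to 138621, 184262, 144223 and 180211 CPM, with 5 and 3 of 10 higher. Among the 5 calls in control mice, that of *Ckm* was kept in only 4 of 12 fits without 1 mouse. Sedentary control mouse 4, the mouse lowest in *Pfkfb1* of its group, had a fiber sum of 177927 CPM, where the other 5 were at 120911 to 139549. The 6 endothelial genes, led by *Cdh5*, summed to 287, 320, 299 and 331 CPM, with 0 of 6 called in control mice and 1 higher and 1 lower in PBMT mice, the lower one, *Emcn*, lost without sedentary PBMT mouse 2. Sums for 6 adipocyte genes, led by *Cfd*, were 24.98 (15.7 to 37.4 over mice), 38.9 (10.4 to 80.4), 23.9 (5.38 to 41.2) and 48.7 CPM (18.3 to 111). The list medians were 0.65 and 0.72 (log2) in control and PBMT mice. In control mice 0 of 6 were called, and in PBMT mice only *Cidec* was, as higher (lost in 6 of 12 fits without 1 mouse). For 4 erythrocyte genes, led by *Hbb-bs*, the sums were 93.6, 81.1, 90.6 and 82.7 CPM, with 0 of 4 called in either comparison. Keratinocyte genes, 5 in number and led by *Krt10*, summed to 2.89, 2.19, 7.69 and 1.65 CPM, with 2 sedentary PBMT mice at 27.9 and 9.79 CPM, and *Krt10*, the 1 gene of these tested, was lower in fatigued PBMT mice (log2 fold change -1.52, edgeR adjusted p = 0.00493, and -0.79 without the mouse at 27.9 CPM). The 6 hepatocyte genes, which bear on the liver form of *Pfkfb1*, summed to 0.0607, 3.93, 0.0386 and 0.539 CPM, led by *Alb*. Fatigued control mouse 5, the mouse highest in *Pfkfb2* and the lowest of its group in *Pfkfb1* (31.4 CPM), held 19.3 CPM of these genes. *Alb*, the 1 gene of these tested, was higher in fatigued control mice (log2 fold change 5.59, edgeR adjusted p = 0.0144), a call lost without that mouse (3.52), and did not pass in PBMT mice (3.30). In sedentary mice 4 (control) and 5 (PBMT) of these 6 genes were at 0 in every library.

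Correlations among the 4 genes were computed within groups. Over the deviations of log2 CPM from the group means in 24 mice, Pearson's r between pairs ranged from -0.35 (*Pfkfb2* with *Pfkfb3*) to 0.21 (*Pfkfb2* with *Pfkfb4*) and Spearman's rho from -0.21 to 0.41 for the same pairs, with r = 0.20 and rho = 0.34 for *Pfkfb1* with *Pfkfb3*, as a description over libraries that share their group and project. Among 11726 genes compared, those most like *Pfkfb3* in these deviations were *Vps41* (r = 0.79, Spearman's rho = 0.71, and r = 0.67 without the 2 mice farthest from the median), *Ddi2* (0.78, 0.67 and 0.62) and *Cecr2* (0.76, 0.59 and 0.54). Between states *Vps41* (0.01 in control and -0.07 in PBMT mice) and *Ddi2* (-0.14 and -0.35) did not pass the test, while *Cecr2* was lower in fatigued muscle, with a log2 fold change of -1.26 in control mice (edgeR adjusted p = 5.45e-06) and -1.37 in PBMT mice (edgeR adjusted p = 6.48e-07). For *Pfkfb4* the nearest were *Rmc1* (r = 0.66, and 0.52 without the 2 mice farthest for *Pfkfb4*), *Qtrt2* (0.65 and 0.35) and *Trub1* (0.64 and 0.59). For *Pfkfb1*, in the same way, they were *Fastkd5* (0.83 and 0.67), *Timm17a* (0.83 and 0.64) and *Nipsnap2* (0.81 and 0.68). For *Pfkfb2* they were *Nceh1* (0.88 and 0.85), *Esrrg* (0.85 and 0.75) and *Plpbp* (0.85 and 0.78). Of the genes nearest to these members, *Timm17a* was lower in fatigued muscle, by log2 fold changes of -0.30 in control and -0.35 in PBMT mice (edgeR adjusted p = 0.00387 and 0.000665). The others did not pass the test between states.

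The annotation gives these genes several transcripts each, 7 for *Pfkfb1*, 13 for *Pfkfb2*, 21 for *Pfkfb3* and 10 for *Pfkfb4*, and counts per gene do not show which transcript start was used. RefSeq promoter windows (GRCm38.p6) of 250 bases before a transcript start were found for all 4 genes, 4 for *Pfkfb1*, 3 for *Pfkfb2*, 2 for *Pfkfb3* and 1 for *Pfkfb4*. They were searched on both strands for ACGTG, a form of the core of HIF binding elements, and for CACGTG, the E-box, which contains ACGTG on each strand. Both *Pfkfb3* windows and 2 of the 3 *Pfkfb2* windows held ACGTG, against 16.6% of 32851 promoter windows of this length, and 1 window of each gene held CACGTG, against 6.02%. The windows of *Pfkfb1* and *Pfkfb4* held neither ACGTG nor CACGTG. Other forms of the HIF core were not searched, so these windows are not said to lack one. The *Pfkfb3* window with CACGTG is shown because *Pfkfb3* had the largest difference between states of the 4 genes; it lies at chr2:11502091-11502340 within the gene, with 11 bases in annotated exons, and is written 5′ to 3′ on the minus strand, up to the base before the start, with CACGTG in capitals 53 to 48 bases upstream.
Pfkfb3: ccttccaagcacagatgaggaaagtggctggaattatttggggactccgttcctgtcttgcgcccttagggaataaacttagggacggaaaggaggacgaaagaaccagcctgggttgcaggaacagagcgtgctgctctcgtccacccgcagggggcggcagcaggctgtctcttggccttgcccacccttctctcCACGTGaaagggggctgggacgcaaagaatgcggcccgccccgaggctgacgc

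Such a match is a description of letters, and no binding was measured.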

How the data were processed

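The files deposited by the authors held raw read counts per gene, 1 library for each of 24 mice. The submitters' processing notes name Trimmomatic, STAR 2.7.1a, Picard 2.20.4, StringTie 2.0.4, featureCounts 1.6.0, HTSeq and GRCm38; which program gave the counts, the strand setting and the annotation release were not given in the sources used here. Of 55487 gene IDs, 55227 matched GENCODE M21, which gave symbols, positions and exon lengths. Members and lists were chosen with earlier results of these data known.

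Counts were tested with edgeR 4.0.16 in R 4.3.3 (TMM, filterByExpr with a minimum count of 10, robust quasi-likelihood F-test, two-sided, Benjamini-Hochberg over all genes tested, threshold 0.05). PBMT was compared with control within the 12 mice of a project, and states and the difference of PBMT effects were compared in a fit of all 24 mice with group as the term. SE is the size of the log2 fold change divided by the square root of F. Every *Pfkfb* gene is given. From each pathway list, genes past the threshold are named, at most the 3 highest and 3 lowest per comparison, with *Pfkm*, *Pfkl*, *Pfkp*, *Fbp2*, *Tigar*, *Hif1a* and *Epas1* always. A gene named in one comparison may be given in both. Likeness used log2 CPM with a prior count of 2 among genes averaging at least 1 CPM, with 3 genes named per member. Of 129 list genes 128 matched; *Skp1* did not. The result of 1 marker list is not reported here. For *Aldoa*, with 2 IDs, the one with more counts was used. The choice of genes used the isoform balance, so the planned exact tests of shares are not reported. No pair of libraries within a group was a duplicate, pairs across groups were not checked, and the code was tested on simulated data.

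Alternatives were DESeq2 1.42.0, its size factors in edgeR, no filter on low counts, a replicate block, all 24 mice in a PBMT fit, each mouse left out, other gene lengths for shares, and, chosen after seeing the data, total counts in place of TMM and CPM in place of log2 CPM for single mice that stood apart.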

Additional observations from a re-analysis of the deposited data

Results flagged for a closer look

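By level, single mice stood apart from the other 5 of their group in 3 of 16 sets of 6 values (Dixon's test on log2 CPM, on the gap to the nearest other mouse as a part of the group's range), where chance gives about 1 in 20. *Pfkfb1* was low in sedentary control mouse 4 at 37.0 CPM, *Pfkfb2* high in fatigued control mouse 5 at 8.37 CPM, and *Pfkfb4* low in sedentary PBMT mouse 2 at 35.9 CPM. With CPM in place of log2 CPM, *Pfkfb1* in sedentary control mouse 4 no longer passed (ratio 0.580) and *Pfkfb3* in fatigued PBMT mouse 2, at 161 CPM, did (0.662). The same ratio also picked mice by their share of the summed *Pfkfb* level, from which nothing is read, since the choice of the genes used the balance of the isoforms. By share, *Pfkfb2* was high in fatigued control mouse 5 at 3.73% and in sedentary PBMT mouse 2 at 1.96%, and fatigued PBMT mouse 2 had a high *Pfkfb3* share, 48.0%, and a low *Pfkfb4* share, 30.0%. Without fatigued PBMT mouse 2 the fatigued against sedentary log2 fold change of *Pfkfb3* in PBMT mice was -2.23, and without sedentary PBMT mouse 2 that of *Pfkfb4* was 0.66. Marker genes of other cells differed in some of these mice. Fatigued control mouse 5 had 19.3 CPM of hepatocyte genes, the highest endothelial sum of its group, 417 CPM, and the lowest muscle fiber sum, 155333 CPM. Sedentary control mouse 4 had a fiber sum of 177927 CPM, where the other 5 reached at most 139549. Sedentary PBMT mouse 2 had 399 CPM of endothelial genes, the highest of its group, and 9.79 CPM of keratinocyte genes. Their part in the *Pfkfb* values was not tested.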

How the results depend on the processing

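Calls of *Pfkfb1* and *Pfkfb3* between states, and of *Pfkfb4* in PBMT mice, were kept under every alternative run. *Pfkfb3* ranged from -1.96 to -1.79 in control mice and from -2.23 to -1.93 in PBMT mice when each mouse was left out. The *Pfkfb4* call in control mice was lost with total counts (0.18, edgeR adjusted p = 0.133), without the filter on low counts (0.26, adjusted p = 0.0522) and in 10 of 12 fits without 1 mouse (range 0.20 to 0.29). The cause was not tested. Among named pathway genes, *Tigar*, *Prkag1*, *Arnt*, *Vegfa*, *Ddit4* and *Higd1a* in control mice and *Gyg*, *Rps6ka1*, *Cul1*, *Pdk1* and *Higd1a* in PBMT mice lost their calls without the filter, where more genes are tested. With DESeq2, and with its size factors in edgeR, *Gyg* and *Higd1a* lost theirs in PBMT mice. No *Pfkfb* call between states changed sign, but *Pfkfb2*, which was not called, did: without fatigued control mouse 5 it was -0.04 for the states in control mice and 0.14 for PBMT in fatigued muscle. Other uncalled values of *Pfkfb1* and *Pfkfb2* also changed sign, among them both for PBMT in sedentary muscle, to within 0.01 of 0. The number of genes called for PBMT in sedentary muscle, 4, was 16 without the filter, 60 with DESeq2, 11 with the replicate block, 1 in the fit of all 24 mice, and 2 to 20 without single mice (20 without PBMT mouse 5, 18 without control mouse 4, 10 without PBMT mouse 2, 7 without PBMT mouse 4, and 2 without control mouse 1, 2 or 6). In fatigued muscle DESeq2 called 2 genes and the replicate block 1. The difference of PBMT effects had 1 to 3 genes, with 3 without sedentary PBMT mouse 2. Mice with the same number did not deviate together in every pair. In fatigued mice r was over 0.1 in 4 of 6 pairs, and 3 of 6 correlated best with their own number. In sedentary mice these were 0 of 6 and 1 of 6. The numbers were therefore not used as pairs in the main fits. The paper states that control mice were on the treadmill in each fatigue test. Which mice shared a session was not given in the sources used here, and whether those of the same number did was not tested. With pairs by number, the share differences of *Pfkfb1* and *Pfkfb2* in PBMT mice, 6.78 and 0.823 points, are the same by arithmetic, which says nothing about the replicate block. With the block the calls of *Tigar* and *Adm* in control mice and of *Adm* and *Pdk1* in PBMT mice were not made, and nothing is read from this, since the numbers were not shown to pair the mice. Another scaling moved the median of all genes by at most -0.06 log2.

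State and project cannot be told apart, 6 mice a group set the precision, and counts per gene show neither transcript forms, protein nor enzyme activity.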
